A study of Mus musculus with 12 samples.

Results

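Imprinted genes are expressed from only 1 of the 2 parental copies, and 37 genes known to be imprinted in mouse were followed here among the 28004 genes of the expression table. They were chosen by symbol as genes with known parent-of-origin expression, with earlier results of these data known, and all 37 were in the table. The 10 growth genes set apart below are a subset of these. Of the 37, 19 are known as expressed from the maternal and 18 from the paternal copy. They lie in 16 imprinted regions, and 7 are long non-coding RNAs. These parental classes were not measured in the cells used here and may not hold in them, as Ube3a is imprinted in neurons. The genes of the insulin-like growth factor axis were not among them. RNA came from mouse lung cells sorted by flow cytometry for 2 reporters, genotype Acta2-dsRed+, Pdgfra-GFP+, carried by every sample. The reporters follow Acta2 (smooth muscle actin) and Pdgfra (a receptor for platelet-derived growth factor), a pairing found in alveolar myofibroblasts of the growing lung. There were 3 libraries at each of 4 ages, E17.5 before birth and P3, P7 and P10 in days after it, and the labels name no treatment, strain or sex and no number of animals per library. They do not state that libraries of 1 age are separate animals, so a p-value here reflects the spread of these samples, possibly technical.

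Imprinting is set in the germ line by DNA methylation of control regions, which is copied onto daughter strands after fertilization and protected from erasure. Each control region acts on a cluster of neighbours, often through a long non-coding RNA that silences protein-coding genes on the same chromosome. Many paternally expressed genes promote fetal growth and many maternally expressed genes restrain it, and a network of such genes is known to decline in several mouse organs as growth slows after birth. The counts used here do not separate the parental copies, so they show total RNA of a gene and not its imprint.

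The fall of the maternally expressed non-coding RNAs and of Mest, described below, also concerns the hosts of microRNAs, whose mature sequences are shown because these hosts carry the results. RefSeq (GRCm38.p6) places 28 microRNA hairpins, with 53 mature forms, within 7 of the imprinted genes. Mirg holds 14 of these hairpins, Rtl1 holds 6 on its opposite strand and 1 on its own, Rian holds 3, and H19, Meg3, Mest and Usp29 hold 1 each. The mature RNAs were not measured: the table has a row for only 1 of the hairpins. The seed, bases 2 to 8, is in capitals. H19 carries miR-675 in an exon, at chr7:142577112-142577133 (5p, minus strand):
mmu-miR-675-5p: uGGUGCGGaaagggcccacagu
mmu-miR-675-3p: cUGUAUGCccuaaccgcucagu
Meg3 carries miR-770 in an exon, at chr12:109563710-109563731 (5p, plus strand):
mmu-miR-770-5p: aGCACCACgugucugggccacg
mmu-miR-770-3p: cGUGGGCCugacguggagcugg
Mest carries miR-335 in an intron, at chr6:30741314-30741336 (5p, plus strand):
mmu-miR-335-5p: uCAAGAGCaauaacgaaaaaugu
mmu-miR-335-3p: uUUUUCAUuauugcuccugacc
From the Dlk1 and Dio3 region come miR-370 in an intron of Rian at chr12:109618305-109618326, miR-127 opposite the exon of Rtl1 at chr12:109592888-109592909 and, in Mirg, miR-410 at chr12:109743764-109743784, all on the plus strand:
mmu-miR-370-3p: gCCUGCUGggguggaaccuggu
mmu-miR-127-3p: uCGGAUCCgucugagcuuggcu
mmu-miR-410-3p: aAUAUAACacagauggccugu
Among the 53 mature forms there were 52 seeds, and 1 was shared, by a pair in introns of Mirg at chr12:109735669-109735692 and chr12:109739132-109739152. The shared seed is followed by different bases:
mmu-miR-453: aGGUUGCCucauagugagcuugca
mmu-miR-496a-5p: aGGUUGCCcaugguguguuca

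The authors deposited scaled estimated counts, which summed to between 13328623 and 18740591 per library. They were turned into counts per 1000000 (CPM) with library sizes corrected by the trimmed mean of M values. Between 22.3% and 54.8% of the estimated counts of a library lay in 267 small structural RNA genes. Both reporter genes were detected in every library, Acta2 at 347 CPM or more and Pdgfra at 165 CPM or more, and markers of the sorted cells moved with stage. Acta2 averaged 1025 ± 46.4 CPM at P3 and 492 ± 182 CPM at E17.5, Pdgfra 179 ± 24.1 and 346 ± 71.9 CPM, and Hhip, which binds hedgehog ligands, 102 ± 11.8 and 609 ± 135 CPM (SD, n = 3 each). Of 7 such markers 2 were higher at P3 (Acta2 and Tagln) and 2 lower (Pdgfra and Hhip), and at P10 against E17.5 Pdgfra and Hhip were lower. Markers of other cells also moved between stages, and none was at 0 in all libraries. The 6 erythroid markers summed to 117 to 179 CPM at E17.5, 31.9 to 53.6 at P3, 12.5 to 44.1 at P7 and 27.0 to 53.6 at P10. The 6 pericyte markers summed to 147 to 239, 46.6 to 51.3, 53.4 to 68.5 and 82.7 to 121 CPM at the same stages, and the 6 airway epithelial markers to 14.9 to 25.9, 85.1 to 137, 122 to 180 and 71.4 to 254 CPM. The 4 mesothelial markers summed to 8.83 to 12.7, 2.32 to 4.39, 1.54 to 3.44 and 0.594 to 3.25 CPM, and the 6 immune markers to 10.2 to 11.8, 18.04 to 21.96, 16.7 to 22.6 and 16.3 to 24.6 CPM. From E17.5 to P3, 4 of 5 tested erythroid and 4 of 6 pericyte markers fell, as did 1 of 2 mesothelial and 1 of 6 endothelial ones, 2 of 4 airway and 2 of 5 immune markers rose, and 0 of 8 alveolar epithelial ones passed. At P10 against E17.5 both tested mesothelial markers were lower, with a median log2 fold change of -3.09. So were 4 of 5 erythroid, 4 of 6 pericyte, 2 of 8 alveolar epithelial and 1 of 6 endothelial ones. In the same comparison 2 of 4 airway and 3 of 5 immune markers were higher. Of all tested genes 9.50% were lower there and 8.79% higher. The part of such cells, or of a change within the sorted cells, in the results below was not tested. In bulk RNA, fewer cells of a type and less RNA per cell cannot be told apart.

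Most imprinted genes that differed between stages were highest before birth. Of the 33 members with values high enough to test, 17 were lower at P3 than at E17.5, where 12% of all tested genes were lower. Another 3 were higher (Slc38a4, Ndn and Nap1l4), where 13.1% of all tested genes were higher. A call here is an adjusted p under 0.05 in edgeR's quasi-likelihood test over 16827 genes. The median log2 fold change, P3 over E17.5, was -0.68 for the 33 members, -1.05 for 10 growth genes among them and -0.048 for all tested genes. Outside the growth genes it was -0.35 for 23 members, of which 9 were lower and 1 higher. P3 and E17.5 libraries did not overlap for 21 members, against 38.9% of all tested genes. With 1 library left out at a time, 13 of the 17 lower calls were kept in all 12 fits and 0 of the 3 higher calls were. Among the lower genes, Asb4 and Ascl2 stood at 0.399 CPM or less at P3. They could enter the test only through their E17.5 values, so the direction of their calls was set in advance.

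At P10 against E17.5, 16 members were lower, where 9.50% of all tested genes were, and 1 was higher (Sgce), where 8.79% were. This comparison shares its E17.5 libraries with the one at P3. All 16 lower calls were kept in each of the 12 fits without 1 library, and the call of Sgce was not. Asb4, Ascl2 and Zdbf2, among the lower genes, stood at 0.237 CPM or less at P10. They could enter the test only through their E17.5 values, so neither their calls nor their being kept is a separate result. The median log2 fold change was -0.75 for the 33 members, -1.69 for the 10 growth genes and 0.0050 for all tested genes. Outside the growth genes it was -0.24 for 23 members. Of these 8 were lower, Asb4, Ascl2 and Zdbf2 among them, and 1 was higher. Libraries of the 2 stages did not overlap for 21 members, where 33.9% of all tested genes did not. Across the 4 stages together, 23 members differed, where 32.1% of all tested genes did. The mean fell at every step for 16 of the 37 genes, and the highest mean was at E17.5 for 23, at P3 for 7, at P7 for 1 and at P10 for 6. Such counts were not made over all genes, so they do not set the members apart. They also include genes too low to test, such as Magel2 and Slc22a18, each with a median of 0 CPM at E17.5.

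**Figure D1:**
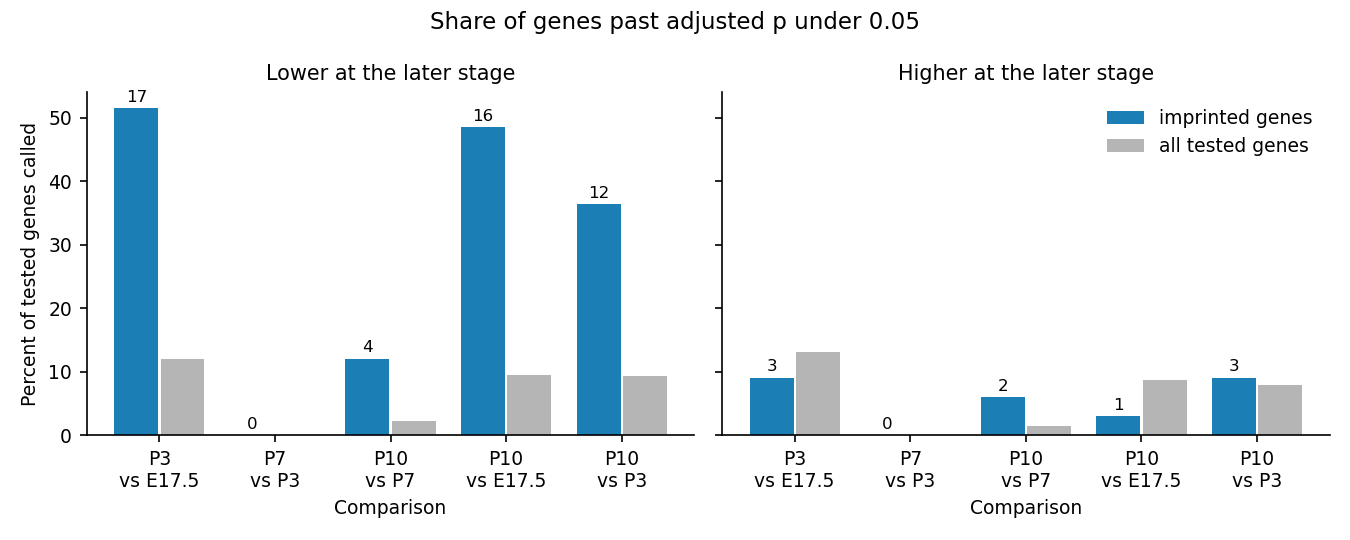
Percent of tested genes past an adjusted p of 0.05, lower (left panel) or higher (right panel) at the later stage, for the 33 tested imprinted genes (blue, with their number above the bar) and all 16827 tested genes (grey), in 5 comparisons of stages. The blue bar of lower genes stands at 51.5% for P3 vs E17.5 and at 48.5% for P10 vs E17.5, against 12% and 9.50% of all tested genes.

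H19, the maternally expressed long non-coding RNA next to Igf2 (chr7:142575529-142578143, minus strand), had the lowest log2 fold change of the members at P10 against E17.5. It stood at 3215, 5435 and 4509 CPM in the E17.5 libraries, 239, 182 and 225 CPM at P3, 75.4, 45.0 and 39.8 CPM at P7 and 13.9, 8.41 and 6.15 CPM at P10. No stage overlapped another, and each stage lay below the one before. The fitted log2 fold change was -4.35 (SE 0.37, adjusted p = 4.21e-05) at P3 against E17.5, -2.49 (SE 0.34, adjusted p = 0.0116) at P10 against P7 and -8.85 (SE 0.45, adjusted p = 1.61e-06) at P10 against E17.5, where the P10 mean was 0.216% of the E17.5 mean. The call at P10 against P7 ended without P10 replicate 2 or P10 replicate 3 (adjusted p 0.0626 to 0.0628). Its neighbour Igf2, a fetal growth factor that shares its control region, averaged 197 ± 37.2, 36.1 ± 4.20, 5.84 ± 0.778 and 2.38 ± 1.003 CPM at E17.5, P3, P7 and P10 (SD, n = 3 each).

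All 5 members in the Dlk1 and Dio3 region on chromosome 12 fell, whichever parental copy they are known to be expressed from. They are not all genes of the region, and Dio3, not a member, was at 0.204 CPM or less in the E17.5 libraries. The paternally expressed Dlk1, a transmembrane protein of the Notch ligand family that holds back fat cell differentiation (chr12:109452823-109463336, plus strand), measured 114, 53.6 and 51.8 CPM in the E17.5 libraries, 5.39, 7.63 and 15.2 CPM at P3, 2.29, 8.11 and 9.52 CPM at P7 and 1.07, 0.906 and 0.610 CPM at P10. The E17.5 libraries were all above the rest, E17.5 replicate 1 stood well above the other E17.5 libraries, and all P10 libraries were below all others. The change on the log2 scale was -2.96 (SE 0.57, adjusted p = 0.00504) at P3 against E17.5, -2.95 (SE 0.66, adjusted p = 0.0443) at P10 against P7 and -6.41 (SE 0.71, adjusted p = 0.00026) at P10 against E17.5. The call at P10 against P7 ended, with adjusted p 0.0529 to 0.163, without any 1 of 8 libraries: E17.5 replicate 2, P3 replicates 1 and 2, P7 replicates 2 and 3 and each P10 replicate.

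Meg3, the maternally expressed non-coding RNA of the same region (chr12:109541001-109571726, plus strand), measured 177, 287 and 221 CPM in the E17.5 libraries, 70.1, 60.8 and 79.0 CPM at P3, 57.0, 50.1 and 67.5 CPM at P7 and 29.9, 35.5 and 30.2 CPM at P10. The P3 and P7 libraries overlapped each other, and lay between those of E17.5 and those of P10. In edgeR its log2 fold change was -1.71 (SE 0.18, adjusted p = 0.000164) at P3 against E17.5, -0.87 (SE 0.18, adjusted p = 0.0322) at P10 against P7 and -2.84 (SE 0.19, adjusted p = 6.23e-06) at P10 against E17.5. The call at P10 against P7 ended without P3 replicate 1 or any 1 of the P7 or P10 libraries (adjusted p 0.0544 to 0.133).

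Rian, a host of small nucleolar RNAs and microRNAs downstream of Meg3, had 84.3, 76.3 and 128 CPM at P3 against 284, 451 and 237 CPM at E17.5, and 67.4, 37.5 and 38.6 CPM at P10. Its log2 fold change was -1.75 (SE 0.31, adjusted p = 0.00262) at P3 and -2.76 (SE 0.32, adjusted p = 0.000253) at P10, both against E17.5. Rtl1, a retrotransposon-derived gene needed in the placenta, had 6.21, 5.81 and 5.34 CPM at P3 against 13.8, 24.6 and 13.2 CPM at E17.5, and 3.03, 2.46 and 1.98 CPM at P10. Its log2 fold changes at P3 and P10 against E17.5 were -1.57 (SE 0.28, adjusted p = 0.0024) and -2.78 (SE 0.29, adjusted p = 0.000117). In Rian and in Rtl1 every P3 and P10 library was below every E17.5 library. Mirg, the microRNA host at the end of the region, had 4.71, 4.90 and 14.5 CPM at P3 against 16.4, 25.2 and 16.95 CPM at E17.5, and 2.43, 2.20 and 1.78 CPM at P10. P3 replicate 3 stood close to the E17.5 libraries of Mirg and well above the other P3 libraries. The log2 fold change of Mirg was -1.28 (SE 0.43, adjusted p = 0.0497) at P3, a call kept in 1 of 12 fits: it ended without any library other than P3 replicate 3 (adjusted p 0.0528 to 0.165), and without that one the value was -2.02 (adjusted p = 0.00297). At P10 against E17.5 the log2 fold change of Mirg was -3.19 (SE 0.46, adjusted p = 0.000961), kept in every fit without 1 library.

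**Figure D2:**
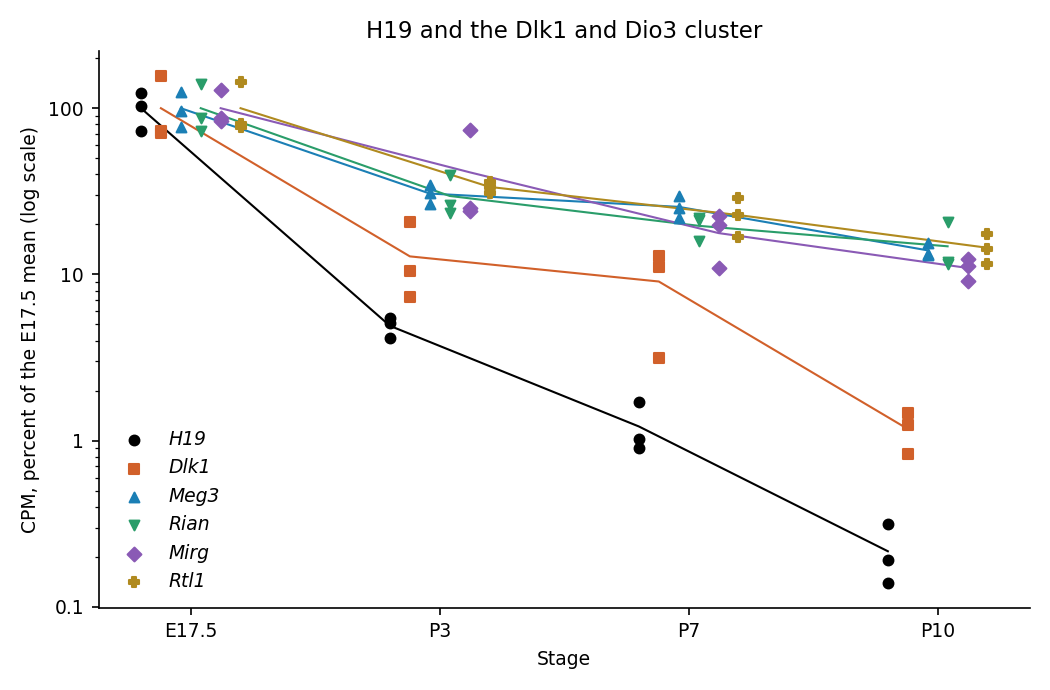
CPM of H19 and of the 5 members in the Dlk1 and Dio3 region as a percent of each gene's E17.5 mean (y, log scale) at the 4 stages (x), with 1 point per library and lines through the means of 3 libraries. At P10 the means of Meg3, Rian, Mirg and Rtl1 stood between 10.9% and 14.8% of E17.5, that of Dlk1 at 1.18% and that of H19 at 0.216%.

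A promoter window each of Dlk1, Meg3 and Mest is shown for the CpG sites and motifs they hold. Dlk1 and Meg3 both fell in total RNA, and are known as expressed from opposite parental copies. The sequences are RefSeq windows of 300 bases (GRCm38.p6), from 250 bases before to 50 bases after a start site, in the direction of transcription. Capitals mark the hexamer bound by ZFP57, TGCCGC in its methylated form, searched on both strands. This hexamer was in 10 of 43 windows of 28 imprinted genes, and in 11.6% of all 32851 promoter windows. The 10 windows belong to 9 genes, as overlapping windows of Mest were counted apart. The hexamer itself holds a CpG site, and the windows were not matched for CpG sites. Another motif, the core GCCATNTT of the factor YY1, was in 2 of the 43 windows (Slc38a4 and Ube3a), and in 6.05% of all. The median number of CpG sites was 13 in the imprinted windows and 7 in all. Matches describe these letters and not binding. The Dlk1 window (chr12:109452573-109452872, plus strand) held 9 CpG sites, the Meg3 window (chr12:109540746-109541045, plus strand) 13 and the Mest window (chr6:30737800-30738099, plus strand) 17. Other RefSeq windows of these genes are not shown, and the choice was made with their motifs known: a Meg3 window at chr12:109545148-109545447 held 1 CpG site, a Mest window at chr6:30733256-30733555 held 8, neither held the hexamer, and one more Mest window overlaps the printed one almost whole. The printed windows are:
Dlk1: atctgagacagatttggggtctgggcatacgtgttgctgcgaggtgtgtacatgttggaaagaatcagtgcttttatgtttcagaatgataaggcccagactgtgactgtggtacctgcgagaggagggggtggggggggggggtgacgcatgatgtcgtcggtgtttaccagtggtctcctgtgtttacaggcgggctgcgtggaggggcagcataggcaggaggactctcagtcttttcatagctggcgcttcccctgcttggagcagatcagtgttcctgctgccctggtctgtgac
Meg3: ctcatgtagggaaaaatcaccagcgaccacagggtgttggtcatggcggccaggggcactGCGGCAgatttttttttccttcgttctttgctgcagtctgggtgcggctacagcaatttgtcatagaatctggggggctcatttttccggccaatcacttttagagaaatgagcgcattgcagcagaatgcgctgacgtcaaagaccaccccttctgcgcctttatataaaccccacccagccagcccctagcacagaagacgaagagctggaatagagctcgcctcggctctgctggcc
Mest: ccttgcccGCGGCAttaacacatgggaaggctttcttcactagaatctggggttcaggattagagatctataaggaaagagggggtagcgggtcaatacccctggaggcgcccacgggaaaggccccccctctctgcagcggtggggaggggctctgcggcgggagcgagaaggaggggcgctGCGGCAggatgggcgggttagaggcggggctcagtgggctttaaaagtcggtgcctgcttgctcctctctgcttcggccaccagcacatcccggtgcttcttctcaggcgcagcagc

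Mest, a paternally expressed hydrolase-like protein of embryonic mesoderm (chr6:30723547-30748465, plus strand), was lower at P10 than at E17.5 and P3. It stood at 72.0, 24.5 and 30.3 CPM in the E17.5 libraries, 18.5, 22.8 and 17.8 CPM at P3, 5.18, 5.07 and 6.84 CPM at P7 and 2.37, 4.01 and 3.91 CPM at P10. E17.5 replicate 1 was far above the other E17.5 libraries, and the P3 libraries lay just below those. The log2 fold change at P3 against E17.5 was -1.10 (SE 0.36, adjusted p = 0.0473), and without E17.5 replicate 1 it was -0.48 (adjusted p = 0.176). That call also ended without any 1 of the P3, P7 or P10 libraries (adjusted p 0.0523 or more). At P10 it was -3.62 (SE 0.40, adjusted p = 0.000187) against E17.5, -3.00 without E17.5 replicate 1 (adjusted p = 4.96e-05), and -2.52 (SE 0.39, adjusted p = 0.00333) against P3. At P7 against P3 the value was -1.79 and did not pass (adjusted p = 0.122), although the libraries of the 2 stages did not overlap. Copg2, a coat protein subunit whose gene overlaps the end of Mest on the opposite strand, was called in no comparison and ranged from 8.92 to 14.8 CPM in all libraries. Whether the counting used strand is not given in the sources used here, so reads of overlapping genes may be shared.

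Peg3 and Zim1, neighbouring zinc finger genes expressed from the paternal and the maternal copy, both fell. Peg3 (chr7:6703892-6730431, minus strand) measured 250.5, 229 and 217 CPM in the E17.5 libraries, 109.7, 101 and 89.7 CPM at P3, 81.9, 84.2 and 98.03 CPM at P7 and 80.9, 78.7 and 80.6 CPM at P10. Every E17.5 library was above every later one, and the P7 and P10 libraries were close together. The change on the log2 scale was -1.21 (SE 0.11, adjusted p = 4.59e-05) at P3 and -1.54 (SE 0.11, adjusted p = 7.18e-06) at P10, both against E17.5. Zim1 had 5.87, 6.95 and 5.27 CPM at P3 against 31.6, 28.5 and 26.4 CPM at E17.5, with a log2 change of -2.26 (SE 0.27, adjusted p = 0.000301), and at P10 it had 2.91, 2.59 and 1.78 CPM, with -3.57 (SE 0.29, adjusted p = 2.17e-05) against E17.5. Usp29, a ubiquitin protease gene that starts next to Peg3 on the other strand, was too low to test and ranged from 0.0647 to 0.203 CPM at P10, against 0.779 to 1.25 CPM at E17.5.

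Regulators of growth signalling and of the cell cycle also fell. Plagl1, a paternally expressed zinc finger factor known to regulate other imprinted growth genes (chr10:13060504-13131694, plus strand), measured 378, 541 and 412 CPM in the E17.5 libraries, 241, 232 and 272 CPM at P3, 193, 183 and 183 CPM at P7 and 157, 140.3 and 145 CPM at P10. The 4 stages did not overlap. In edgeR its log2 fold change was -0.84 (SE 0.13, adjusted p = 0.00131) at P3 and -1.59 (SE 0.13, adjusted p = 2.71e-05) at P10, both against E17.5, and -0.75 (SE 0.13, adjusted p = 0.00531) at P10 against P3.

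Grb10, a maternally expressed adaptor that restrains insulin receptor signalling (chr11:11930508-12038683, minus strand), measured 464, 598 and 739 CPM in the E17.5 libraries, 404, 361 and 359 CPM at P3, 391, 351 and 380.4 CPM at P7 and 316, 277 and 277 CPM at P10. The P3 and P7 libraries overlapped, and all P10 libraries were below both. Its log2 fold change was -0.68 (SE 0.15, adjusted p = 0.00832) at P3 and -1.05 (SE 0.15, adjusted p = 0.000926) at P10, both against E17.5. Cdkn1c, a maternally expressed inhibitor of cyclin-dependent kinases (chr7:143458339-143461050, minus strand), measured 108, 93.5 and 112 CPM in the E17.5 libraries, 54.0, 51.1 and 52.9 CPM at P3, 41.2, 38.9 and 45.3 CPM at P7 and 31.4, 30.2 and 29.0 CPM at P10. Its libraries were close together within each stage, and no stage overlapped another. The log2 fold change was -0.99 (SE 0.09, adjusted p = 6.60e-05) at P3 against E17.5, -0.47 (SE 0.09, adjusted p = 0.0265) at P10 against P7 and -1.79 (SE 0.09, adjusted p = 1.63e-06) at P10 against E17.5. The call at P10 against P7 ended without P10 replicate 2 or 3 or any 1 of the P7 libraries (adjusted p 0.0673 to 0.123).

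**Figure D3:**
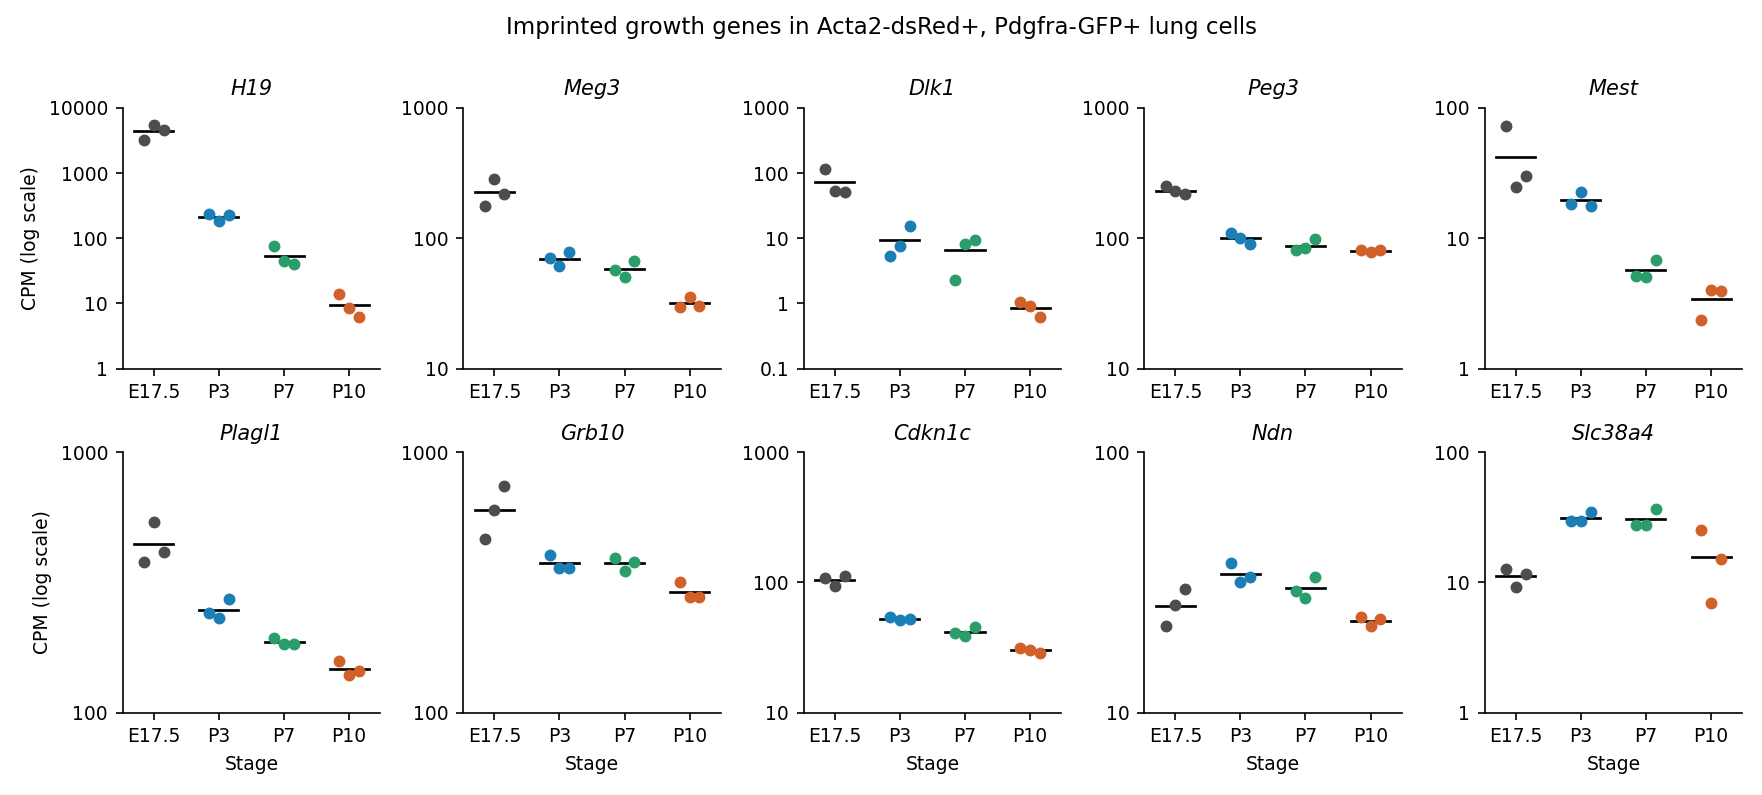
CPM (y, log scale with its own range in each panel) of 10 imprinted growth genes at the 4 stages (x), with 1 point per library and a bar at the mean of 3 libraries. In 8 panels the E17.5 libraries are above all P10 libraries, while Ndn and Slc38a4 are highest at P3 or P7.

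Slc38a4 and Ndn went the other way after birth. Slc38a4, a paternally expressed amino acid transporter (chr15:96994820-97055956, minus strand), measured 12.7, 9.15 and 11.6 CPM in the E17.5 libraries, 29.4, 29.6 and 34.7 CPM at P3, 27.4, 27.7 and 36.8 CPM at P7 and 25.2, 6.92 and 14.997 CPM at P10. Every P3 and P7 library was above every E17.5 library, and the P10 libraries were spread from below the E17.5 libraries to near those of P7. The log2 fold change at P3 against E17.5 was 1.48 (SE 0.36, adjusted p = 0.0133), which ended only without E17.5 replicate 2 (adjusted p = 0.06) among the 12 fits. At P10 against P7 it was -0.96 (adjusted p = 0.161), and without P10 replicate 1 it was -1.50 (adjusted p = 0.0266).

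Ndn, the paternally expressed growth suppressor necdin (chr7:62346569-62350262, plus strand), measured 21.5, 26.0 and 29.7 CPM in the E17.5 libraries, 37.6, 31.7 and 33.2 CPM at P3, 29.4, 27.5 and 33.3 CPM at P7 and 23.3, 21.6 and 22.9 CPM at P10. The P3 libraries were above those of E17.5 and of P10. The change on the log2 scale was 0.41 (SE 0.13, adjusted p = 0.0372) at P3 against E17.5 and -0.60 (SE 0.13, adjusted p = 0.0109) at P10 against P3, a comparison added after the levels were seen. The P3 call was kept in 5 of 12 fits: it ended without E17.5 replicate 1 or 2, P3 replicate 1 or 3, P7 replicate 1, or P10 replicate 2 or 3 (adjusted p 0.0513 to 0.129). The P10 call was kept in all 12.

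Around Kcnq1 on chromosome 7, members moved apart. Kcnq1ot1, the paternally expressed antisense RNA that silences this cluster (chr7:143203458-143296549, minus strand), measured 4.42, 4.57 and 4.33 CPM in the E17.5 libraries, 3.14, 3.19 and 2.70 CPM at P3, 2.94, 3.49 and 2.79 CPM at P7 and 4.51, 6.08 and 5.29 CPM at P10. It was lower at P3 and P7 than before birth, and each P10 library was above every P3 and P7 library. The fitted log2 fold change was -0.56 (SE 0.17, adjusted p = 0.0355) at P3 against E17.5, 0.78 (SE 0.17, adjusted p = 0.0366) at P10 against P7 and 0.81 (SE 0.17, adjusted p = 0.0106) at P10 against P3. The call at P3 ended without any 1 of the E17.5 or P3 libraries or P10 replicate 3 (adjusted p 0.053 to 0.0993). The call at P10 against P7 ended without P10 replicate 2 or 3, P3 replicate 1 or 2, or any 1 of the P7 libraries (adjusted p 0.0579 to 0.138), and that at P10 against P3 was kept in all 12 fits. Kcnq1ot1 overlaps Kcnq1 on the opposite strand.

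Nap1l4, a nucleosome assembly protein expressed from the maternal copy, stood at 31.5, 24.3 and 29.8 CPM in the E17.5 libraries, 39.7, 37.1 and 32.1 CPM at P3, 37.97, 34.9 and 37.9 CPM at P7 and 32.8, 32.0 and 33.0 CPM at P10. Its log2 fold change at P3 against E17.5 was 0.34 (SE 0.11, adjusted p = 0.0439), and the P3 libraries were all above those of E17.5. The call was kept in 3 of 12 fits: it ended without E17.5 replicate 2 or 3, P3 replicate 1 or 2, P10 replicate 2 or 3, or any 1 of the P7 libraries (adjusted p 0.05 to 0.149). Ascl2, a transcription factor of trophoblast and stem cells, had 0.883, 1.36 and 1.77 CPM at E17.5, 0, 0 and 0.0676 CPM at P3, 0.0997, 0.0563 and 0 CPM at P7 and was listed at 0 in all 3 libraries at P10. It was called lower at P3 (adjusted p = 0.00747) and at P10 (adjusted p = 0.00489) against E17.5. Cd81, a tetraspanin, ranged from 363 to 486 CPM and Tssc4 from 25.5 to 37.8 CPM, and neither was called by edgeR in any comparison. Phlda2, which restrains placental growth, and the transporter Slc22a18 were listed at 0 in most libraries and reached at most 0.136 CPM and 0.417 CPM.

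In the Snrpn region, Ube3a, a ubiquitin ligase imprinted in neurons, stood at 52.3, 45.9 and 48.5 CPM in the E17.5 libraries, 42.8, 47.5 and 39.0 CPM at P3, 40.5, 35.9 and 40.5 CPM at P7 and 50.2, 53.2 and 53.1 CPM at P10. All P10 libraries were above all P3 and P7 libraries. Its log2 fold change at P10 against P7 was 0.42 (SE 0.09, adjusted p = 0.0394), a call kept in 3 of 12 fits: it ended without E17.5 replicate 3, P3 replicate 1 or 2, or any 1 of the P7 or P10 libraries (adjusted p 0.0514 to 0.137). Snrpn, a splicing protein, ranged from 2.03 to 3.50 CPM at P10, against 3.74 to 4.85 CPM at E17.5, and was not called. Magel2 was above 0 in 1 library only, at 0.0680 CPM.

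In the Peg10 and Sgce region on chromosome 6 the 4 genes differed in direction. Asb4, a maternally expressed ubiquitin ligase adaptor, had 0.341, 0.399 and 0.203 CPM at P3 against 3.47, 5.64 and 2.87 CPM at E17.5, and 0.237, 0.0647 and 0.153 CPM at P10. Its log2 fold change against E17.5 was -3.62 (SE 0.45, adjusted p = 0.00037) at P3 and -4.64 (SE 0.49, adjusted p = 0.000115) at P10. Sgce, which encodes epsilon-sarcoglycan of the muscle membrane complex, stood at 32.5, 31.8 and 34.0 CPM in the E17.5 libraries, 36.6, 38.9 and 33.8 CPM at P3, 39.3, 39.2 and 37.7 CPM at P7 and 49.6, 38.04 and 39.6 CPM at P10. P10 replicate 1 was the highest, and every P10 library was above every E17.5 library. The fitted log2 change at P10 against E17.5 was 0.37 (SE 0.10, adjusted p = 0.0324), a call kept in 4 of 12 fits: it ended without any 1 of the E17.5 or P7 libraries, P3 replicate 1 or P10 replicate 1 (adjusted p 0.0506 to 0.115). Peg10, a retrotransposon-derived gene of the placenta that shares a promoter region with Sgce, stood at 20.9, 26.3 and 51.8 CPM in the E17.5 libraries, 55.4, 50.2 and 35.9 CPM at P3, 40.3, 49.4 and 45.3 CPM at P7 and 33.4, 10.999 and 14.5 CPM at P10. P10 replicate 1 was apart from the other P10 libraries. The log2 fold change of Peg10 at P10 against P7 was -1.20 (adjusted p = 0.158), and without P10 replicate 1 it was -1.85 (adjusted p = 0.0296).

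Ppp1r9a, the actin-binding protein neurabin of the same region, stood at 27.1, 47.8 and 49.1 CPM in the E17.5 libraries, 28.4, 24.2 and 20.3 CPM at P3, 32.5, 33.5 and 33.8 CPM at P7 and 45.7, 48.6 and 42.4 CPM at P10. It was low at P3 and high again at P10, where every library was above those of P3 and P7, and E17.5 replicate 1 lay among the P3 libraries. In edgeR its log2 fold change was -0.77 (SE 0.20, adjusted p = 0.0182) at P3 against E17.5 and 0.91 (SE 0.20, adjusted p = 0.0132) at P10 against P3. The P3 call ended without E17.5 replicate 2 or 3 or P3 replicate 2 or 3 (adjusted p 0.0657 to 0.0794), and the P10 call without P10 replicate 2 or P3 replicate 2 or 3 (adjusted p 0.0508 to 0.0532).

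Peg13, a paternally expressed non-coding RNA inside an intron of Trappc9 on the same strand, stood at 8.77, 9.73 and 7.30 CPM in the E17.5 libraries, 7.02, 7.75 and 6.69 CPM at P3, 7.08, 8.68 and 7.36 CPM at P7 and 9.74, 11.1 and 11.8 CPM at P10. All P10 libraries were above all P3 and P7 libraries. The log2 fold change at P10 against P3 was 0.61 (SE 0.15, adjusted p = 0.0186), and it ended without P10 replicate 2 or 3 or P3 replicate 1 or 3 (adjusted p 0.0587 to 0.0726). Trappc9, a vesicle trafficking protein, ranged from 8.09 to 10.7 CPM and was not called.

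**Figure D4:**
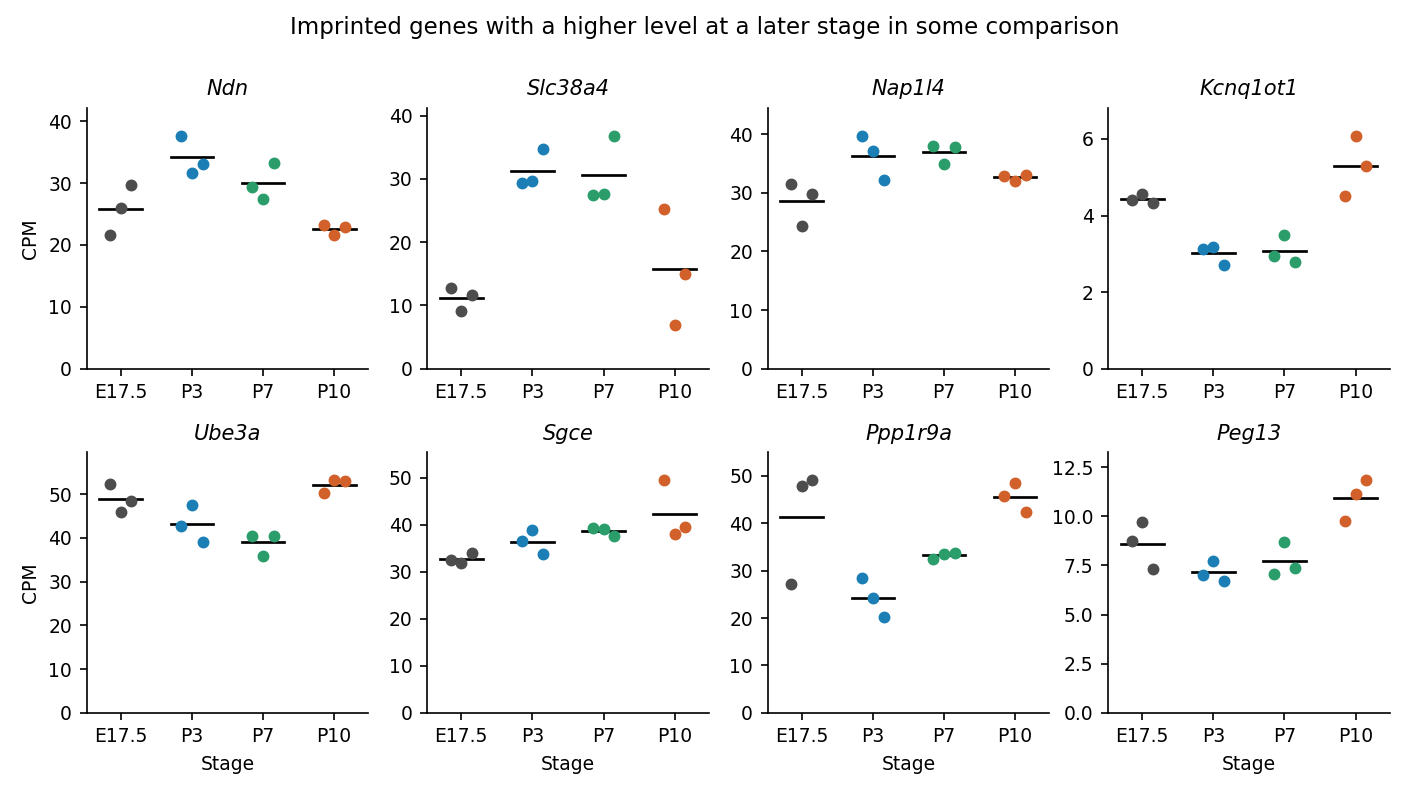
CPM (y, from 0) at the 4 stages (x) of the 8 imprinted genes that were higher at the later stage in at least 1 of 5 comparisons, with 1 point per library and a bar at the mean of 3 libraries. Ndn, Slc38a4 and Nap1l4 are higher at P3 than at E17.5, Sgce is higher at P10 than at E17.5, and Kcnq1ot1, Ube3a, Ppp1r9a and Peg13 are lowest at P3 or P7 and higher at P10.

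Among single genes, Nnat, the paternally expressed membrane protein neuronatin, had 76.1, 58.8 and 47.8 CPM at P3 against 148, 257 and 349 CPM at E17.5, with a log2 change of -2.04 (SE 0.30, adjusted p = 0.00087), and 82.8, 62.4 and 54.8 CPM at P10, with -1.91 (SE 0.30, adjusted p = 0.00137) against E17.5. Its P3, P7 and P10 libraries overlapped. Zdbf2, a paternally expressed zinc finger gene, stood at 1.16, 1.46 and 1.36 CPM in the E17.5 libraries, 0.477, 0.171 and 1.42 CPM at P3, 0.0498, 0.0563 and 0.105 CPM at P7 and 0.0594, 0 and 0.102 CPM at P10. P3 replicate 3 was at the level of E17.5, and every P7 and P10 library was near 0. The fitted log2 change at P10 against E17.5 was -4.38 (SE 0.91, adjusted p = 0.00735), and without P10 replicate 3 it was -5.12 (adjusted p = 0.0227). At P7 against P3 the value of Zdbf2 was -3.15 (adjusted p = 0.178), and without P3 replicate 3 it was -2.08.

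Gnas, the stimulatory G protein subunit, ranged from 474 to 659 CPM over the 12 libraries, and Impact, a regulator of translation, from 6.28 to 9.24 CPM. Airn, the paternally expressed antisense RNA that silences Igf2r, ranged from 12.6 to 38.4 CPM, with E17.5 replicate 1 at 38.4 CPM and all others at 21.7 CPM or less. Of the 33 tested members, 9 were called by edgeR in none of 5 comparisons of stages: Airn, Cd81, Copg2, Gnas, Impact, Peg10, Snrpn, Trappc9 and Tssc4. Other tools called 3 of them, as given below for P10. In edgeR's test across the 4 stages together Impact did differ (adjusted p = 0.0492), while Nap1l4 and Sgce did not (adjusted p = 0.0708 and 0.0779). Impact was also called lower at P3 against E17.5 without E17.5 replicate 3 (adjusted p = 0.0264).

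**Figure D5:**
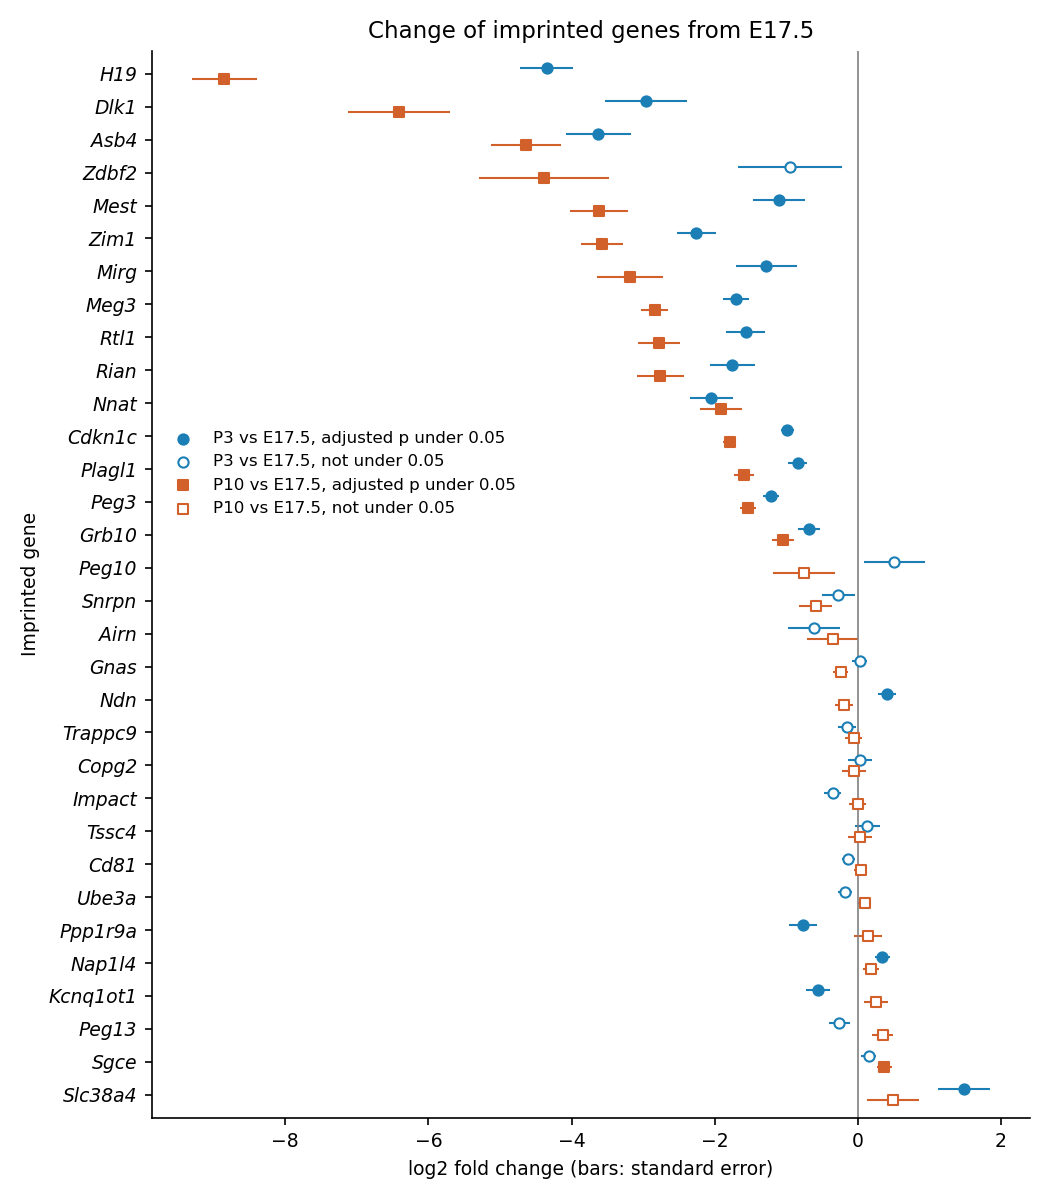
Log2 fold change (x, bars show the standard error) of 32 tested imprinted genes (y) at P3 against E17.5 (blue circles) and at P10 against E17.5 (orange squares), filled where the adjusted p was under 0.05; Ascl2, listed at 0 in all P10 libraries, is left out. H19 reaches -8.85 and Dlk1 -6.41 at P10, and Slc38a4 reaches 1.48 at P3.

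Within the first postnatal week, at P7 against P3, edgeR called 1 gene in all, Igf2, which is not a member. It called 0 members, where it called 0.00594% of all tested genes lower and 0% higher. An unadjusted p under 0.05 was reached by 7 members, where 14.3% of all tested genes reached it. They were H19 with a log2 fold change of -2.01, Mest, Zdbf2, Mirg with -1.21, Plagl1 with -0.41, Cdkn1c with -0.33 and, upward, Ppp1r9a with 0.45. The value of Mirg was -0.47 without P3 replicate 3. DESeq2 called 3 members lower (H19, Mest and Cdkn1c), where it called 1.88% of all genes with an adjusted p lower, and limma-voom called 1 (H19), where it called 0.0535% lower. In edgeR, H19 and Mest passed without E17.5 replicate 1 (adjusted p = 0.0363 and 0.0148). Libraries of P7 and P3 did not overlap for 11 members, where 25.9% of all tested genes did not. The median log2 fold change was -0.16 for the members and 0.0075 for all tested genes.

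From P7 to P10, 4 members fell (H19, Meg3, Dlk1 and Cdkn1c), where 2.25% of all tested genes fell, and 2 rose (Kcnq1ot1 and Ube3a), where 1.40% rose. All 4 that fell were among the growth genes, a subset of members that were chosen with earlier results of these data known. None of the 6 calls was kept in all 12 fits without 1 library, as given for each gene above. Libraries of P10 and P7 did not overlap for 20 members, where 30.1% of all tested genes did not. At P10 against P3, 12 members were lower, where 9.40% of all tested genes were, and 3 were higher (Kcnq1ot1, Ppp1r9a and Peg13), where 7.90% were. The lower ones were H19, Meg3, Rian, Mirg, Dlk1, Rtl1, Zim1, Mest, Plagl1, Cdkn1c, Ndn and Zdbf2, with log2 fold changes between -4.50 (H19) and -0.60 (Ndn). Those of Rian, Mirg, Rtl1 and Zdbf2 each ended in some fit without 1 library. The call of Rian ended without E17.5 replicate 1, P10 replicate 2 or 3, or any 1 of the P3 or P7 libraries (adjusted p 0.0581 to 0.164). Those of Mirg and Rtl1 ended without P10 replicate 2 or 3 and that of Rtl1 also without P3 replicate 1 (adjusted p 0.0503 to 0.0764). That of Zdbf2 ended without P3 replicate 3 or any 1 of the P10 libraries (adjusted p 0.0587 to 0.115), and its log2 fold change was -3.44, -2.37 without P3 replicate 3. The value of Mirg was -1.91 and -1.17 without P3 replicate 3. Other tools called further members. At P10 against P7, DESeq2 called Zim1 (adjusted p = 0.0212) and Peg10 (adjusted p = 0.0466) lower and Cd81 higher, with a log2 fold change of 0.24 (adjusted p = 0.0205), where it called 9.09% of all genes with an adjusted p. At P10 against P3 it called Peg3 (adjusted p = 0.0115), Peg10 (adjusted p = 0.0159), Gnas (adjusted p = 0.0315) and Slc38a4 (adjusted p = 0.036) lower, where it called 19.3%. There limma-voom called Peg10 (adjusted p = 0.0404) and Slc38a4 (adjusted p = 0.0376) lower, where it called 16.7%. For 23 members the libraries of P10 and P3 did not overlap, where 37.3% of all tested genes did not.

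Both parental classes held genes that fell. The classes are those known for each gene, and whether they hold in these cells was not measured. At P3 against E17.5, 10 of 17 tested maternally expressed members were lower and 1 higher, with a median log2 fold change of -0.77. At the same ages 7 of 16 tested paternally expressed members were lower and 2 higher, with a median of -0.59. Of all tested genes 12% were lower and 13.1% higher, with a median of -0.048. At P10 against E17.5 the counts were 9 lower and 0 higher for maternal members and 7 lower and 1 higher for paternal ones, with medians of -1.05 and -0.67, where 9.50% of all tested genes were lower and 8.79% higher, with a median of 0.0050. The maternal counts of lower genes include Asb4 and Ascl2 at both ages, and the paternal count at P10 includes Zdbf2. The direction of these calls was set in advance, as given above. The difference between the classes was not tested. All 7 non-coding members had lower means at P3 than at E17.5, where 8928 of 16827 tested genes had a negative log2 fold change. The test called 5 of them lower, and the calls of Mirg and Kcnq1ot1 were kept in 1 and 5 of 12 fits. At P10 against E17.5, 5 of the 7 had a negative log2 fold change, where 8337 tested genes did, and 4 were called lower. Kcnq1ot1 and Peg13 were on the other side there and were not called.

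Genes that act on imprints or on DNA methylation were followed alongside, 14 of them tested. They include genes that copy or protect methylation and also the Tet genes, which oxidize methylated cytosine. At P3 against E17.5, 5 rose and 4 fell, where 13.1% of all tested genes rose and 12% fell. Dnmt1, which copies DNA methylation onto new strands, averaged 40.3 ± 0.660 CPM at P3 and 15.9 ± 1.78 CPM at E17.5 (SD, n = 3 each), with a log2 change of 1.34 (SE 0.10, adjusted p = 1.79e-05). Uhrf1, which brings Dnmt1 to newly replicated DNA, averaged 36.9 ± 2.62 CPM at P3 and 5.65 ± 0.952 CPM at E17.5, with 2.70 (SE 0.28, adjusted p = 0.000124). Both are also known as genes of proliferating cells. Smaller rises were those of Ctcf, the insulator protein, at 0.62 (SE 0.15, adjusted p = 0.0113), Trim28, a corepressor of zinc finger proteins, at 0.44 (SE 0.08, adjusted p = 0.00399), and Setdb1, a histone methyltransferase, at 0.47 (adjusted p = 0.0245). Zfp57, the zinc finger protein that binds methylated control regions, averaged 22.9 ± 2.48 CPM at P3 and 35.0 ± 7.61 CPM at E17.5, with a log2 change of -0.61 (SE 0.16, adjusted p = 0.0158). Tet2, which oxidizes methylated cytosine, had -0.89 (SE 0.19, adjusted p = 0.00712), and Tet3 and Dnmt3a were also lower. The call of Zfp57 ended without E17.5 replicate 3 or P3 replicate 1 or 3 (adjusted p 0.0569 to 0.0618), and that of Setdb1 without E17.5 replicate 2 or P3 replicate 1 or 2 (adjusted p 0.0518 to 0.0724). Tet3 lost its call without E17.5 replicate 1 or 2 or P3 replicate 2 or 3, and Dnmt3a without any library other than E17.5 replicate 1 and P3 replicate 1 (adjusted p up to 0.117 and 0.197).

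By P10, Dnmt1 and Uhrf1 were low again. Dnmt1 averaged 17.2 ± 1.31 CPM at P10 and 35.6 ± 0.570 CPM at P7, with a log2 change of -1.04 (SE 0.10, adjusted p = 0.00382). Uhrf1 averaged 9.14 ± 4.31 CPM at P10 and 28.4 ± 1.05 CPM at P7, with -1.63 (SE 0.26, adjusted p = 0.0157), a call that ended without P10 replicate 2 or 3 or any 1 of the P7 libraries (adjusted p 0.0575 to 0.0828). They were the only edgeR calls among the 14 genes in that comparison, where 2.25% of all tested genes were lower. At P10 against E17.5, where 8.79% of all tested genes were higher and 9.50% lower, 1 of the 14 passed, Setdb1, with 0.50 (SE 0.13, adjusted p = 0.0231), and it ended without E17.5 replicate 2 or 3 or P10 replicate 2 or 3 (adjusted p 0.051 to 0.0887).

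Of 25 other imprinted genes tested, 6 were lower and 4 higher at P3 than at E17.5, with a median log2 fold change of -0.18, where 12% of all tested genes were lower and 13.1% higher. Besides Igf2, the lower ones were Dcn, the matrix proteoglycan decorin, at -2.21 (SE 0.57, adjusted p = 0.0182), Tfpi2, a protease inhibitor, at -1.44 (SE 0.39, adjusted p = 0.0227), Igf2r at -0.99 (SE 0.31, adjusted p = 0.0421), Ago2 and Zrsr1. Qpct, a glutaminyl cyclase, was higher, at 17.48 ± 1.31 CPM at P3 and 7.60 ± 1.52 CPM at E17.5 (SD, n = 3 each), with 1.20 (SE 0.15, adjusted p = 0.000369), and so were Dhcr7, Peg12 and Commd1. The call of Dcn ended without E17.5 replicate 2 or P3 replicate 1 or 2, and that of Tfpi2 without E17.5 replicate 1 or 2 or any 1 of the P3 libraries (adjusted p 0.0506 to 0.0877). That of Igf2r was kept in 3 of 12 fits and ended without any 1 of the P3, P7 or P10 libraries (adjusted p 0.0611 to 0.112). Without E17.5 replicate 1 the value of Igf2r was -0.36 (adjusted p = 0.019). The call of Zrsr1 ended without E17.5 replicate 1 or 2 or P3 replicate 1 or 2 (adjusted p 0.0593 to 0.108), and that of Dhcr7 without E17.5 replicate 2 (adjusted p = 0.0533). Peg12 lost its call without P3 replicate 1 or 2, P10 replicate 3, or any 1 of the E17.5 or P7 libraries (adjusted p 0.0555 to 0.136). At P10 against E17.5, 5 were lower and 3 higher, where 9.50% of all tested genes were lower and 8.79% higher, and Qpct was again higher, with 1.47 (SE 0.15, adjusted p = 9.98e-05). Igf2 fell at P7 against P3, where 1 gene in all passed, with -2.63 (SE 0.27, adjusted p = 0.0233), a call that ended without P10 replicate 3 or any 1 of the P3 or P7 libraries (adjusted p 0.058 to 0.235) and with the replicate number as a block. Igf2 and Commd1 fell at P10 against P7, where 2.25% of all tested genes did. Both calls ended without P10 replicate 2 or 3 or any 1 of the P7 libraries, and that of Igf2 also without any 1 of the P3 libraries, under limma-voom and with the block.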

How the data were processed

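RNA was measured in 12 libraries of sorted mouse lung cells, 3 at each of 4 stages, assigned from their titles. The deposited table holds scaled estimated counts, rounded by the authors, as its name and values show; low values of short genes come in large steps, so values are not reads and a 0 sets no upper limit. The build was GRCm38, per the submitters' processing notes. Which aligner and quantifier were used is not given in the sources used here. Positions are from GENCODE M21 and sequences from RefSeq (GRCm38.p6).

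Genes were tested by quasi-likelihood in edgeR 4.0.16 (with limma 3.58.1, in R 4.3.3): its filter on low values by stage, trimmed mean of M values scaling, 1 model over all 12 libraries and Benjamini-Hochberg adjustment at 0.05 over 16827 genes. Every adjusted p is from it unless another tool is named. Of the 37 members, 33 passed the filter; Usp29, Phlda2, Slc22a18 and Magel2 did not. A gene can pass through the stage where it is high, as Asb4, Ascl2 and Zdbf2 could through E17.5. Counts over the 33 therefore do not speak for all 37. Depth, between 13328623 and 18740591 estimated counts per library, limits low genes most.

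Members and lists were chosen with earlier results of these data known. The comparison of P10 with P3 was added after the levels were seen. Every member is named; values per library are given for 10 growth genes, for members higher at a later stage and for the extreme fold changes, and up to 6 called genes per list and comparison. Alternatives were other scalings, no filter, DESeq2 1.42.0, limma-voom, the 6 libraries compared alone, a replicate block, a minimum fold of 1.5, and each library left out.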

Additional observations from a re-analysis of the deposited data

How the results depend on the processing

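The count of imprinted genes called lower at P10 against E17.5 (16) stayed within 1.5 times under every alternative tried. The count across the 4 stages (23) did so under every alternative in which it was made. It was not made with only the 6 libraries compared or under a minimum fold of 1.5. No direction of a named gene reversed. Under a minimum fold of 1.5, lower genes numbered 11 of 17 at P3 against E17.5, 0 of 4 at P10 against P7 and 3 of 12 at P10 against P3, and higher genes 0 in all of these and in P10 against E17.5. Without a filter on low values, higher genes numbered 1 at P3 against E17.5 (3 before), 0 at P10 against P7 (2 before) and 0 at P10 against E17.5 (1 before). With only the 6 libraries compared, they numbered 1 at P3 and 0 at P10, both against E17.5, and 1 gene was lower at P7 against P3, where DESeq2 called 3 and limma-voom 1 and the main test 0. The cause was not tested.

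Libraries share a replicate number in the titles. The deviations of same-numbered libraries correlated between -0.195 and 0.136 over 18 pairs, and those of differently numbered libraries between -0.203 and 0.22. No pairing by number was seen, but these values cannot exclude a shared litter or preparation. With that number as a replicate block, 2 genes were lower and 0 higher at P10 against P7 and 0 higher at P10 against E17.5.

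With 1 library left out, lower and higher genes numbered 13 to 15 and 0 to 3 at P3 against E17.5, 0 to 2 and 0 at P7 against P3, 0 to 4 and 0 to 2 at P10 against P7, 16 to 19 and 0 to 2 at P10 against E17.5, and 8 to 14 and 1 to 3 at P10 against P3; 19 to 23 differed across the stages. Where this left a stage with 2 libraries, the spread was pooled over all stages.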
